A study of Mus with 2 samples.

Results

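Notch signalling genes were examined in mouse bone marrow derived macrophages (BMDMs) given the FXR agonist GW4064 or its solvent. The 10 genes were 3 Fringe glycosyltransferases (Mfng, Lfng, Rfng), 3 receptors (Notch1, Notch2, Notch4), the ligand Jag1, the transcription factor Rbpj and its targets Hes1 and Hey1. They were taken by name as Notch pathway genes, and the list was chosen by the difference between these same 2 arrays, on which Mfng was higher at each of its probes. The values of these genes are therefore a description and support nothing else. The 10 genes had 15 of the 39429 probes of the array, and 12 probes for 9 genes were well above background. The whole array held probes for 20056 named genes.

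The cells came from bone marrow of 10-week-old male C57BL6/J mice, grown for 7 d with 10 ng/mL of M-CSF. In both groups M2 conditions were then set with 10 ng/mL of IL-4 for 24 h, and the groups received DMSO or 10 µM of GW4064 over that time. Each group was 1 sample on 1 single-colour Agilent array, so that no test was possible, and this number of arrays sets the limit on precision. Whether the cells of the 2 samples came from the same mouse is not given in the sources used here.

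Notch receptors are cut by furin on the way to the cell surface, where they bind Delta or Jagged ligands on a neighbouring cell. Binding exposes the receptor to ADAM10 and then to gamma-secretase, and the freed intracellular domain joins RBPJ in the nucleus to switch on genes of the Hes and Hey families. The extracellular part of the receptor carries O-fucose, placed by POFUT1, and the Fringe enzymes lengthen that sugar with N-acetylglucosamine in the Golgi. The added sugar alters how strongly the receptor answers Delta and Jagged ligands. In blood cells Notch2 and the Fringe enzymes Lfng and Mfng are best known for the development of marginal zone B cells.

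The values are processed signals, the brightness of each spot after the scanner software had subtracted the background. Before arrays were compared, each was scaled to the 75th percentile of its signals, 1209 for DMSO and 1265 for GW4064, and a log2 difference is GW4064 minus DMSO on that scale. A gene was called changed at 2-fold or more. As a measure of reading error, probes printed 10 times on the array were used, and the SD of the log2 difference over their copies was taken. Its median was 0.16 for signals under 100, 0.09 from 100 to 1000, and 0.071 from 1000, over 17, 70 and 140 probes. The 90th percentile of this SD was 0.29, 0.18 and 0.11 in the same order, and differences below it are called within the reading error. This yardstick is an SD and not a limit, so a difference between unchanged spots can also pass it. It says nothing of the spread between cultures, which 1 sample per group cannot give. Signals of different probes were not read as levels of different genes, since a probe's brightness depends on its sequence. Marker lists are also given as summed signals on each array, and such a sum mostly follows the brightest probes of its list.

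Of the 9 measured genes, 6 were higher and 3 were lower with GW4064, against 51.6% higher and 48.2% lower among all 13530 genes measured. Mfng alone was 2-fold or more higher, as were 2.04% of all genes, and none of the 9 was 2-fold or more lower, against 2.71% of all genes. By probes, 2 of the 12 (both for Mfng) were 2-fold or more higher and 0 were lower, against 2.15% and 2.77% of all 23749 measured probes. The median log2 difference of the 9 was 0.22, and that of all genes was 0.0068. Without Mfng the 8 other genes had a median of 0.19 and lay between -0.42 and 0.45. Of the 12 probes, 9 differed by more than the reading error, but so did 40.5% of all probes well above background on both arrays. RNA of whole cultures was measured, so that fewer cells of a type and less RNA per cell cannot be told apart.

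**Figure D1:**
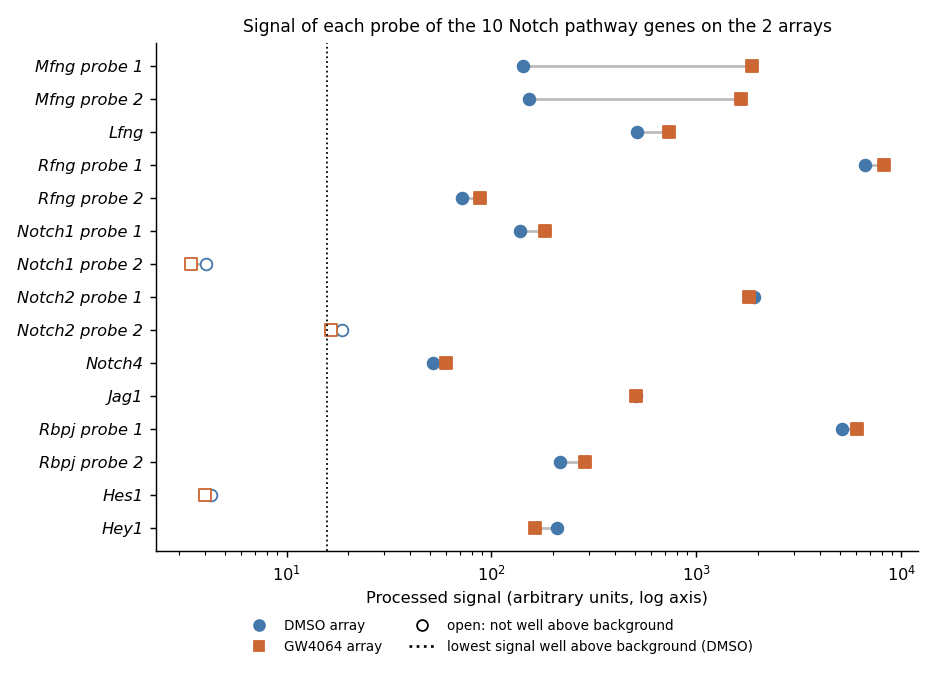
Processed signal (arbitrary units, log axis) of each of the 15 probes on the DMSO array (circles) and the GW4064 array (squares), with open symbols for probes not well above background. The probes for Mfng moved from 143 and 153 to 1868 and 1659, and every other pair of symbols lies close together.

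Mfng, manic fringe, had the largest difference of the 10 genes. Its first probe, matched to NM_008595, had a signal of 143 with DMSO and 1868 with GW4064, and the second probe, for the same transcript, had 153 and 1659. Both probes were low on the DMSO array and more than 10 times brighter on the GW4064 array. The log2 differences were 3.65 and 3.37, which differ from each other by more than the reading error at this level, and their mean of 3.51 is an 11.4-fold difference. In the order of the 21707 probes measured on both arrays, these were the 3rd and the 6th highest. Mfng was also 1 of 11 genes of which each of 2 or more measured probes was 2-fold or more higher, among 3419 genes with that many probes (0.322%). Because the list was chosen with the rise of both probes known, this share describes Mfng and lends it no support.

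The spots of Mfng were plain on the raw image values as well. The first spot had a median pixel intensity of 205 with DMSO and 2247 with GW4064, over local backgrounds of 28 and 18.5. The second had 189 and 1691, over 13.5 and 20.5. None of these spots was marked as uneven. Within 300 µm of the first spot lay 3 other spots that differed 8-fold or more between the arrays, which puts it in an area counted as damaged. The second had 0 such spots around it. Here damaged means only that 2 or more other such spots lay within 300 µm, and the cause of their differences was not tested. Other spots within 5 rows and columns had a median log2 difference of -0.020 around the first and -0.016 around the second.

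The genes next to Mfng in the order of differences, over 12575 genes with a probe measured on both arrays, were Arg1 (3.82) and Camkk1 (3.52) above it and AA467197 (3.38) and Bmp2 (3.21) below it. Arg1 encodes the arginase that marks M2 macrophages and Camkk1 a kinase that acts on AMPK and CaM kinases. With a single difference per gene, this likeness is one of size alone.

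Cell types other than macrophages that make Fringe enzymes could be present in such cultures, so their markers were read beside Mfng. Of the markers of B and T cells, Cd79a and Cd3d were not well above background on either array. The B cell gene Ms4a1 had a signal of 35.8 with DMSO, was not well above background with GW4064 and was at least 2.47-fold lower, while Cd3e differed by 0.18 and Cd4 by -0.15. Of 6 dendritic cell markers, Xcr1 and Clec9a were not well above background, and Itgax (-0.30) and Ccr7 (-0.60) were lower. Zbtb46 had 0.34 at the probe measured on both arrays. Its second probe, in a damaged area, was well above background with GW4064 alone and had 0.55. Flt3 was at least 4.94-fold higher at 1 probe, whose spot lay in a damaged area, and its second probe was below that limit on both arrays. The summed signal of the dendritic cell markers was 186697 with DMSO and 159319 with GW4064. Itgax made up nearly all of the dendritic cell sum, with 186594 and 159127. It encodes CD11c, which the paper also used as a marker of M1 macrophages, so this sum is not particular to dendritic cells. The part of B, T and dendritic cells in the result for Mfng was not tested.

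Lfng, lunatic fringe, had 1 probe, with a signal of 514 with DMSO and 737 with GW4064. Its log2 difference was 0.45, or 1.37-fold, and 6.36% of all genes were as high or higher. Rfng, radical fringe, had 2 probes of very different brightness. The bright probe had 6680 and 8208, a log2 difference of 0.23 at a spot in a damaged area, and the dim one had 72.0 and 87.6, a difference of 0.22. The probes for Rfng gave nearly the same difference, although that of the dim probe is within the reading error at its level. The mean of 0.22 is 1.17-fold, and 14.9% of all genes were as high. All 3 Fringe genes were thus higher with GW4064, Mfng far more than the others. With the arrays centred on spike-in RNA they had 3.32, 0.27 and 0.037, the last, for Rfng, below the reading error at either probe. With damaged areas left out only the dim probe for Rfng remained, so that its rise is not settled.

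**Figure D2:**
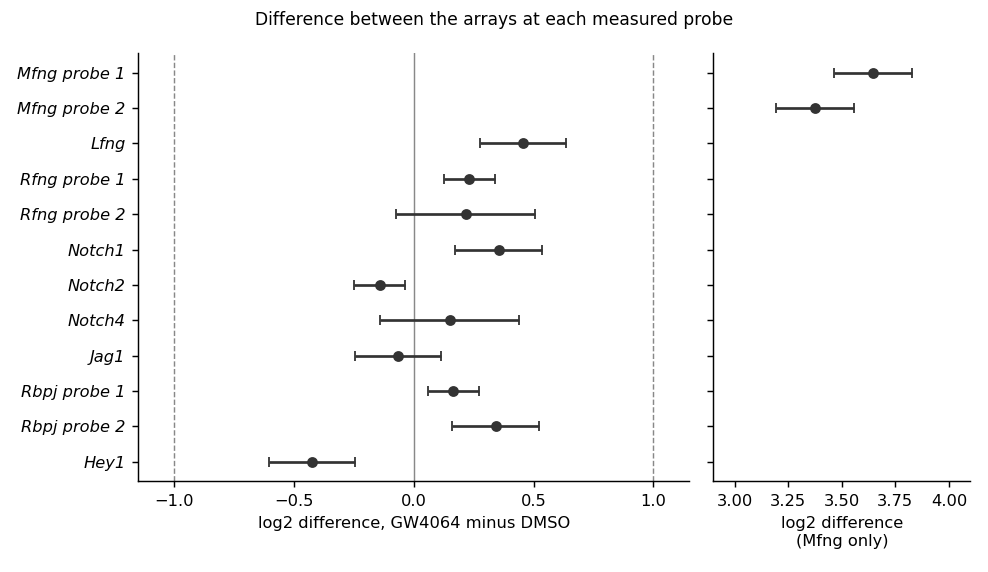
The log2 difference (GW4064 minus DMSO) of the 12 probes well above background, with bars of the 90th percentile of the SD over copies at that signal level and dashed lines at 2-fold. Both probes for Mfng lie above 3, in a panel with its own axis, and the other probes lie between -0.42 and 0.45.

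Centring on spike-in RNA, which was added to both labelling reactions, lowered all differences by 0.19 relative to the 75th percentile. Of the 9 genes Notch4 alone turned from higher to lower with it. Of the 73 further pathway genes described after them, 34 were higher and 39 lower by the 75th percentile, and 12 were higher and 61 lower by the spike-in RNA, so that positive differences below 0.19 have no settled sign.

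Notch1, Notch2 and Notch4 all differed by less than 2-fold. Notch1 was read by 1 probe, at 137 with DMSO and 183 with GW4064, a log2 difference of 0.35 that is beyond the reading error and was 0.17 with the spike-in RNA. Its second probe, with 4.05 and 3.41, was on neither array well above background. Notch2, the receptor of marginal zone B cells, had 1910 and 1812 at its bright probe, a difference of -0.14, just beyond the reading error of 0.11. Around that spot the median difference of 115 other spots, dim ones included, was -0.16. Around the 12 measured probes this local median ran from -0.16 to 0.063, with -0.14 at Hey1 and -0.13 at Notch1. The second probe for Notch2, with 18.7 and 16.4, was not well above background. Notch4, best known from endothelial cells, had 51.9 and 60.3, a difference of 0.15 within the reading error, and turned to -0.037 with the spike-in RNA and -0.079 with normexp, a model-based background correction. Of these 3 receptors Notch1 was highest and Notch2 lowest.

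Notch3, the receptor outside the 10 genes, was lower. It had a signal of 42.9 with DMSO and 22.4 with GW4064, which is 2-fold lower and lies at the threshold. Its difference was under 2-fold by quantile normalization, by loess and with the deposited log2 table, and the normexp correction, which draws dim signals together, gave a log2 difference of -0.21. Notch3 is known from smooth muscle cells and pericytes. Stromal markers moved the same way, with 7 of 7 measured genes lower (of 8 listed, Lum was not well above background), a median of -0.76 and summed signals of 36810 with DMSO and 20622 with GW4064. Col1a2, a collagen chain, had -0.99, and Pdgfrb, a receptor of pericytes and fibroblasts, had -0.76. The part of stromal cells in the value of Notch3 was not tested.

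Jag1, the Jagged ligand, was read by 1 probe at 509 on each array. Its log2 difference of -0.066 is within the reading error and was -0.25 with the spike-in RNA. Of the other ligands, Jag2, Dll1 and Dll4 were not well above background on either array, and Dll3, a ligand-like inhibitor, had 29.0 and 31.4 at 1 probe (0.051, and -0.14 with the spike-in RNA). Dlk1 and Dner, non-canonical ligands, were well above background with GW4064 alone, at signals of 26.8 and 21.9, at least 1.63-fold and 1.33-fold higher. Both spots lay in damaged areas, with 7 and 3 other 8-fold differences around them. Jag1 was thus the only canonical ligand among those probed that was well above background. Of 8 endothelial markers, 6 were measured and 5 of them were lower, with a median of -0.17, summed signals of 18761 and 18121, and Tek and Tie1 not well above background. Vwf made up 16904 and 16204 of these sums. The part of endothelial cells in the values of Notch4, Jag1 and Hey1 was not tested.

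Rbpj, the DNA-binding protein through which all Notch receptors act, was higher at each of its probes when scaled to the 75th percentile. The bright probe had 5150 with DMSO and 6046 with GW4064, a log2 difference of 0.17, and the dimmer one had 217 and 287, a difference of 0.34. Both exceed the reading error at their level, and their mean of 0.25 is 1.19-fold, with 13% of all genes as high. The bright spot had 2 other spots with an 8-fold difference around it. With such areas left out only the dimmer probe remained. With the spike-in RNA the mean was 0.066, below the reading error at either probe. That centring lowered all differences by 0.19, more than the 0.17 of the bright probe, so the sign of the bright probe is not settled.

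Hes1 and Hey1 are repressors that RBPJ switches on directly. The probe for Hes1 had 4.29 with DMSO and 4.01 with GW4064, not well above background on either array, so that no difference can be given. Its spots had median pixel intensities of 32 and 34.5, over local backgrounds of 19 and 17. Hey1 had 210 and 164, a log2 difference of -0.42 or 1.34-fold lower, beyond the reading error. It was the lowest of the 9 genes and 7.9% of all genes were as low. Hey1 was lower in each of the 12 settings of scaling, background and filter, from -0.61 with the spike-in RNA to -0.32 with normexp.

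Set in order, the 9 genes ran from Mfng (3.51) through Lfng (0.45), Notch1 (0.35), Rbpj (0.25), Rfng (0.22), Notch4 (0.15), Jag1 (-0.066) and Notch2 (-0.14) to Hey1 (-0.42). The steps from Mfng to Lfng (3.05) and from Notch2 to Hey1 (0.28) were larger than the reading error of both neighbours. The other 6 steps lay between 0.029 and 0.22 and were within the reading error of at least 1 of the neighbours.

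**Figure D3:**
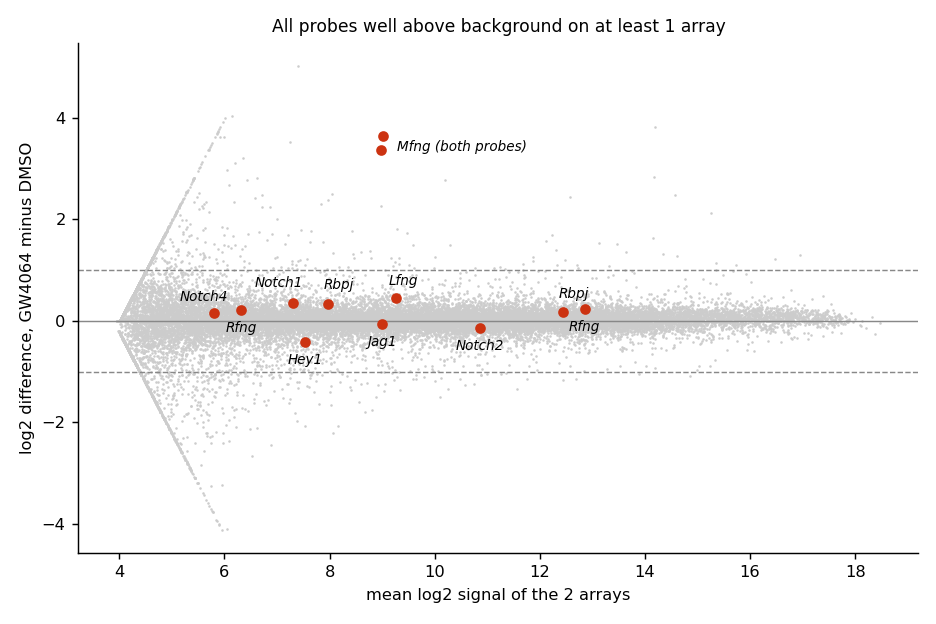
The log2 difference (GW4064 minus DMSO) of each probe well above background on at least 1 array against its mean log2 signal, with the probes of the 9 measured genes in red and dashed lines at 2-fold. The probes for Mfng stand far above the bulk of the probes, and those of the other genes lie within 2-fold; straight edges at low signal come from probes set to the lowest measurable value on 1 array.

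A list of 85 further Notch pathway genes, written from general knowledge, had 81 genes with a probe and 73 that were measured. The median log2 difference of these 73 was -0.0064. Hes3 was the only gene 2-fold or more higher and Notch3 the only one 2-fold or more lower. Dlk2, Psen2 and Aph1c had no probe matched by accession and were not analysed here.

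The enzymes that act on the same sugars as the Fringe genes differed little. POFUT1 places the O-fucose, and its gene Pofut1 had -0.10 as the mean of its 2 probes. B4galt1, whose enzyme adds galactose after Fringe, had 0.088 (-0.10 with the spike-in RNA). The enzymes of O-glucose were close to 0 too, with Poglut1 at -0.13, Poglut2 at -0.017, Poglut3 at -0.17, Gxylt1 at -0.062, Gxylt2 at 0.0081 and Xxylt1 at 0.063, and Eogt, which adds N-acetylglucosamine directly, had -0.0064. The 12 genes of Notch O-glycosylation, Fringe genes included, split evenly, with 6 higher and 6 lower and a median of 0.00086. With the spike-in RNA the 3 Fringe genes were the higher ones, Rfng by less than the reading error, and the 9 others were lower.

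GDP-fucose is the donor that POFUT1 uses. Of the 6 genes for its supply, Gmds (0.0078) and the transporter gene Slc35c2 (0.16) were higher, and Gfus (-0.17), Fcsk (-0.20), Fpgt (-0.11) and Slc35c1 (-0.048) were lower. None differed 2-fold, and with the spike-in RNA all 6 were lower.

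Of the genes that cut the receptor, Adam10 had the largest difference. Its signal was 7635 with DMSO and 12011 with GW4064, a log2 difference of 0.59, and 4.36% of all genes were as high. Adam10 was higher in each setting, from 0.40 to 0.61. Adam17 had 0.13 (-0.062 with the spike-in RNA), and its probes gave 0.30 and -0.044. Furin had -0.22, and of the gamma-secretase subunits Ncstn had -0.22, Aph1a 0.011, Psenen -0.036 and Aph1b -0.16, whose probes disagreed (0.033 and -0.36).

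Of the 12 genes of trafficking and turnover, 7 were higher and 5 lower (3 and 9 with the spike-in RNA), and none reached 2-fold. Dtx4, an E3 ligase of the Deltex family, had the largest value, with 7671 and 15030, a log2 difference of 0.90 or 1.87-fold. Itch, an E3 ligase that marks Notch for breakdown, had 2458 and 3696, a difference of 0.52, and Nedd4, a ligase of the same family, had 315 and 191, a difference of -0.79. The 9 others lay between -0.17 and 0.19. Neurl1a, Neurl1b, Mib1 and Mib2, whose ligases act on the ligands, lay between -0.079 and 0.047.

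The 9 genes of the nuclear complex, Rbpj included, had a median of -0.044, with Crebbp lowest at -0.24 and Maml3 highest at 0.34. The probes for Maml3 disagreed, with -0.18 at the brighter and 0.86 at the dimmer, whose spot lay in a damaged area, and with such areas left out Maml3 was lower. The 14 corepressor genes had a median of -0.028, from Tle1 at -0.26 to Tle3 at 0.36.

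Of 11 target genes, 6 were measured and 4 were higher, with a median of 0.081, and with the spike-in RNA 1 was higher. Cdkn1a had 0.34, with 0.14 at the probe printed 10 times and 0.55 at the other, Ccnd1 had 0.18, Dtx1 0.15, Hes7 0.0071 and Myc -0.0027. Hes5, Hey2, Heyl and Nrarp, which are read as markers of Notch activity in many tissues, were not well above background on either array. Of the other genes on the Hes and Hey list, Hes2 had 0.40 and Hes6 -0.12, and Helt was not well above background. Bhlhe40 (0.36) and Bhlhe41 (-0.32), also on that list, are not themselves Hes or Hey genes. Hes3 was well above background with GW4064 alone (53.8) and was at least 3.27-fold higher, and its spot lay in a damaged area.

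**Figure D4:**
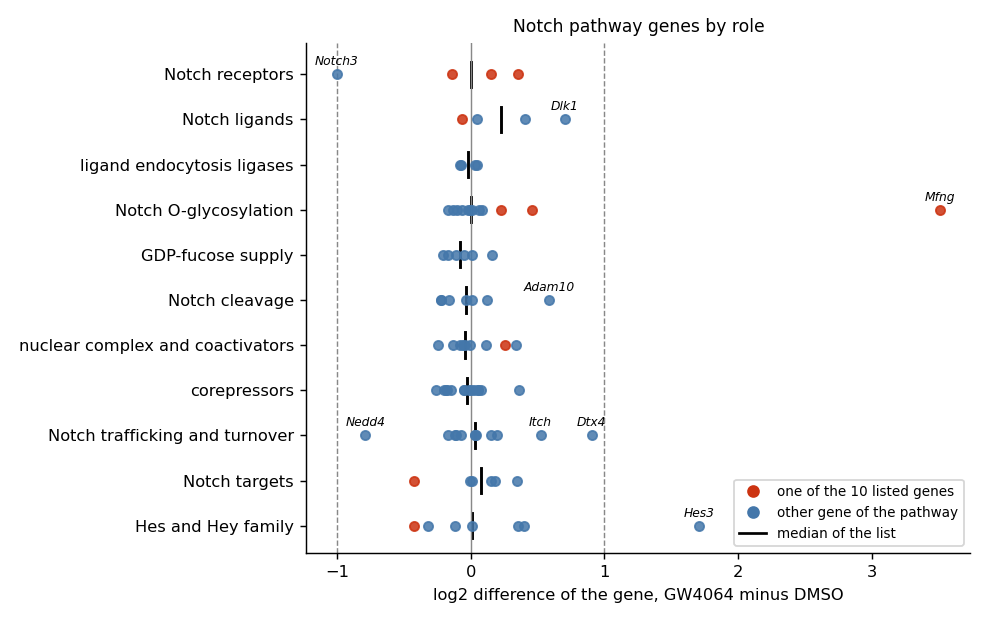
The log2 difference (GW4064 minus DMSO) of each measured gene by its role in the Notch pathway, with the 10 listed genes in red, the other genes in blue, a black bar for the median of each list and dashed lines at 2-fold. All medians lie between -0.078 and 0.23, and Mfng stands apart from the other O-glycosylation genes.

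Depth on an array is the signal over background, which was well above background for 22519 probes with DMSO and 22937 with GW4064. Macrophage markers were bright on both arrays, with summed signals of 341224 and 326560 over 7 genes, of which 5 were higher and 2 lower (0 and 7 with the spike-in RNA), from Adgre1 at -0.25 to Cd14 at 0.13. The brightest probe for Csf1r made up 169338 and 161892 of these sums. Cd68 was not analysed here. All 7 neutrophil markers were lower, with a median of -0.79 and summed signals of 13970 and 9052. Spots that differed 8-fold or more numbered 577, and areas with 2 or more others within 300 µm held 16.5% of all spots.

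**Figure D5:**
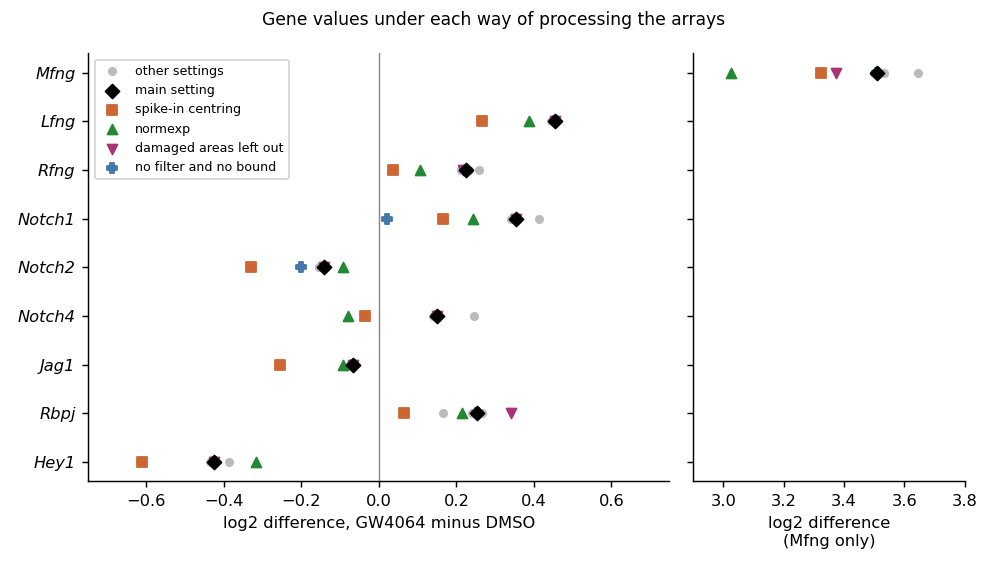
The log2 difference of each measured gene under each of 12 ways of processing the arrays, with the main setting as a black diamond and 4 alternatives marked. Mfng, in a panel with its own axis, stayed between 3.03 and 3.65, and Notch4 crossed 0.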

How the data were processed

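Total RNA of 1 DMSO and 1 GW4064 sample was hybridised to single-colour Agilent mouse arrays. The authors deposited the scanner intensity of each spot, background-subtracted and detrended within the array by Feature Extraction 10.7.1.1, and a log2 table of both arrays whose normalization is not given in the sources used here. Groups came from the treatment label, because the description of the GW4064 sample repeats that of the DMSO sample.

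The deposited processed intensities were put on the log2 scale, and the log2 of each array's 75th percentile over 43020 non-control spots was subtracted. Spots marked as uneven or as population outliers (399 and 207) were left out, and spots and then probes were averaged. A probe with several copies counted as well above background where at least 0.5 of its copies were. Where 1 array was not well above background, its value was raised, where lower, to the smallest signal of any probe that passed (15.7 and 15.1), which gives "at least N-fold". A bound that pointed the other way was set to 0. SystematicName accessions were matched to GRCm38.p6 transcripts, which named 26439 of 39200 probes. The array was designed on mm9, so no coordinates are given, and sequences were not used here. Copy SDs used probes with 8 or more copies well above background at all spots.

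The members, lists, named genes and alternatives were chosen with earlier results of these data known. Named were all members, the further genes 2-fold different, all genes of the receptor, ligand, O-glycosylation, GDP-fucose, cleavage, target and Hes and Hey lists, the extremes of other lists, 2 genes on each side of Mfng, and markers of macrophages, endothelium, stroma, neutrophils, B and T cells and dendritic cells. Alternatives were quantile, median, loess (span 0.3) and spike-in centring, the deposited log2 table, normexp (offset 50), marked spots kept, other filters, the brightest probe, 1.5-fold and 4-fold thresholds, and damaged areas left out. Some listed genes are not reported here. The calculations were tested on simulated data. The normexp correction was run in R 4.3.3 with limma 3.58.1, and all else in Python 3.11.15 (pandas 2.3.3, numpy 2.4.6, statsmodels 0.14.6, scipy 1.17.1), with plots by matplotlib 3.10.9.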

Additional observations from a re-analysis of the deposited data

How the results depend on the processing

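No paired analysis was possible because each group has 1 array. Mfng had a log2 difference of 3.32 with spike-in centring, 3.03 with normexp, 3.65 with its brightest probe alone and 3.37 with damaged areas left out. It was the only one of the 10 genes past the threshold in each setting, 1.5-fold and 4-fold included, and 0 of them were lower by that much. The number higher was 6 in all settings but spike-in centring and normexp, which gave 5 because Notch4 turned. Without a filter Notch1 was at 0.021. Of the other pathway genes, the single one 2-fold higher (Hes3) became 0 with normexp, with probes well above background on both arrays, at 4-fold and with damaged areas left out, 4 at 1.5-fold, and 5 without a filter. The single one lower (Notch3) became 0 by quantile normalization, loess, the deposited table, normexp and 4-fold, and 2 at 1.5-fold.

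Over the whole array, 510 probes were 2-fold or more higher and 659 lower. These numbers were 112 and 120 with normexp, 178 and 278 with probes well above background on both arrays, 1637 and 1664 without a filter, 1117 and 1318 at 1.5-fold, 118 and 156 at 4-fold, and 277 and 338 with damaged areas left out. Of the probes that differed 2-fold or more, 43.6% were higher, and 29.7% with spike-in centring. The cause of these changes was not tested beyond the construction of each alternative. Signals near background limit what can be said of Hes1 and the canonical ligands other than Jag1.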
